A study of Homo sapiens with 24 samples.

Results

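The genes described here are listed as steroid-metabolising enzymes, which make, activate or inactivate steroid hormones. They are HSD11B2, HSD17B1, HSD17B2, HSD17B4, HSD17B8, HSD17B12, STS, SRD5A1 and SRD5A3. SRD5A3, despite its name, encodes an enzyme of dolichol synthesis. The listed genes were taken by name from the deposited table, whose 25541 entries are genes or several genes merged into 1 row. Of the 9 listed genes, 8 have a row and HSD17B8 is not analysed here. HSD11B2, HSD17B2, STS, SRD5A1 and SRD5A3 each have a row of their own. HSD17B1 is merged with COASY, NAGLU, HSD17B1P1 and RP11-400F19.8, HSD17B4 with FAM170A, and HSD17B12 with AC023085.1, RP11-472I20.1 and RP11-472I20.2. For these 3 merged rows the fragments of the enzyme cannot be told from those of the other genes, so they are called the HSD17B1, HSD17B4 and HSD17B12 rows.

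RNA was sequenced from 2 derivatives of T47D, a hormone receptor positive human breast cancer line. T47D-co is labelled PR-positive and T47D-Y is labelled PR null, PR being the progesterone receptor. Cells of both lines were kept for 18 h with interferon-alpha (IFN, 20 IU/ml) or with water. For the next 6 h they had R5020, a progestin made by synthesis, at 10 nM, or ethanol (EtOH) in its place. The 8 groups were therefore T47D-co given R5020 and IFN, R5020 and water, EtOH and IFN, or EtOH and water, and T47D-Y given the same 4 combinations, with 3 biological replicates each. All were grown in medium with serum and insulin. Each line stands for 1 derivative, and the labels do not say whether replicates were separate cultures, so p-values measure the spread between these samples.

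Steroid hormones act through nuclear receptors, and the cell sets how much active hormone reaches the receptor. Steroid sulfatase frees steroids from circulating sulfates, 17beta-hydroxysteroid dehydrogenases interconvert strong and weak oestrogens and androgens, 5alpha-reductases saturate the A ring of testosterone and progesterone, and 11beta-hydroxysteroid dehydrogenase type 2 turns cortisol into cortisone. In breast and endometrium, induction of the oestradiol-oxidising enzyme by progestins is a known way in which progesterone opposes oestrogen.

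Promoter sequence was at hand for 5 of the 9 genes (RefSeq, GRCh38.p14), and is shown for genes with a row of their own, SRD5A1 and SRD5A3 because they rose with R5020 and STS because it fell. Each line gives the 250 bases upstream of an annotated start, with motif matches in capitals. The motifs were the hexamer shared by the progesterone and glucocorticoid receptors (AGAACA or TGTTCT), the paired element ACANNNTGT and the interferon response core (GAAANNGAA, or TTCNNTTTC on the other strand).
SRD5A1, chr5:6633190-6633439, plus strand: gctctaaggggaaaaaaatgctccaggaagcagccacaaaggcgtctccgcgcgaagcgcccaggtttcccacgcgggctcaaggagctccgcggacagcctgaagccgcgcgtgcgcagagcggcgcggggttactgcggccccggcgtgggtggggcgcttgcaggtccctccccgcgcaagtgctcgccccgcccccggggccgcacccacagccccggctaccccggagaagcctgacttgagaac
SRD5A3, chr4:55345992-55346241, plus strand: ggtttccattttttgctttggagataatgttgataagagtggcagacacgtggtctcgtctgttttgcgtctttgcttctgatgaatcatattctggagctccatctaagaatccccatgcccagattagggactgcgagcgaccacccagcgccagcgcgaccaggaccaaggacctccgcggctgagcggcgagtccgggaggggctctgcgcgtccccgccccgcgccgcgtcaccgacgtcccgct
STS, first of 5 annotated starts, chrX:7147040-7147289, plus strand: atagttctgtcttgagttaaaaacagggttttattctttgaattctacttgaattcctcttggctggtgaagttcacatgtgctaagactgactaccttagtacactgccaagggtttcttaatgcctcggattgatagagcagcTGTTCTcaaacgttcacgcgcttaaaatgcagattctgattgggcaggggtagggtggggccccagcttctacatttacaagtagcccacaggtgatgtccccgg
STS, the 4th start, chrX:7251994-7252243, plus strand: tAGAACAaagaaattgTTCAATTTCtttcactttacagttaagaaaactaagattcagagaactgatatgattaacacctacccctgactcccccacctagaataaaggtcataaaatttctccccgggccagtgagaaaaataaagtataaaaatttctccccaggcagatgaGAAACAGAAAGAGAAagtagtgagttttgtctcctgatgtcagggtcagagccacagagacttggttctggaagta
The SRD5A1 and SRD5A3 windows hold none of the motifs, nor do the windows of HSD17B4 and HSD17B8. The first STS window holds the hexamer TGTTCT, 105 to 100 bases before the start. The 4th holds AGAACA and 3 matches to the interferon core, 2 of them overlapping. The STS windows of the 2nd, 3rd and 5th starts, not shown, hold none of the motifs. With 5 windows STS had more room for a match than the other genes, which have 1 window each. Among all 35116 promoter windows of this length, 12.4% hold the hexamer, 4.61% the paired element and 6.88% the interferon core. These shares count windows with at least 1 match, so they do not describe a window with 3. Whether any match acts was not tested. GC content was 70.8% upstream of SRD5A1 and 59.6% upstream of SRD5A3, against a median of 58% over all windows.

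Levels are scaled fragments, that is estimated fragments per library after 1 common scaling of all 24 libraries. Changes are given as log2 ratios of (scaled fragments + 1) with their SE, from limma, and understate the change of low genes. A row counts as called where its two-sided p, adjusted by Benjamini-Hochberg over 20162 entries, is under 0.05. Those entries reached 10 scaled fragments in 3 or more libraries. All 8 rows passed this filter. Depth was 14141307 to 33607494 estimated fragments per library. In 4 of the 24 libraries, all given water, mitochondrial transcripts were 0.942 to 1.075% of fragments, against 3.166 to 4.745% in the other 20. The low ones were T47D-Y EtOH water replicate 1, T47D-Y R5020 water replicates 1 and 2 and T47D-co EtOH water replicate 2. They thus lie unevenly over the lines, and a fit without them keeps 1 library in T47D-Y given R5020 and water. The 8 luminal epithelial markers were high in every library (KRT8 10554 to 30872, EPCAM 1444.5 to 2091.1 scaled fragments). Their summed level was 67578.1 to 69865.0 in T47D-co given R5020 and water and 97531.8 to 98482.3 in T47D-co given EtOH and water. Of 12 markers of other cell types 9 have a row, and their summed level ranged from 5015.8 to 6382.2, of which the merged row that holds CD68 and EIF4A1 gave 4245.6 to 5865.7. PTPRC, CD3E and CDH5 stayed at 0 to 9.21 scaled fragments. Their part in the results was not tested.

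PGR and NR3C1, whose receptors can bind R5020, stood far apart in the lines. PGR, the progesterone receptor gene, averaged 26480 ± 1400 scaled fragments in T47D-co, against 692.6 ± 37.6 in T47D-Y (SD, n = 3 each, EtOH and water). NR3C1, the glucocorticoid receptor gene, averaged 1211.9 ± 66.7 in T47D-co, against 24.7 ± 2.77 in T47D-Y. For every difference between the lines below, the part of PGR cannot be told apart from that of NR3C1 or of the lines' other differences.

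**Figure D1:**
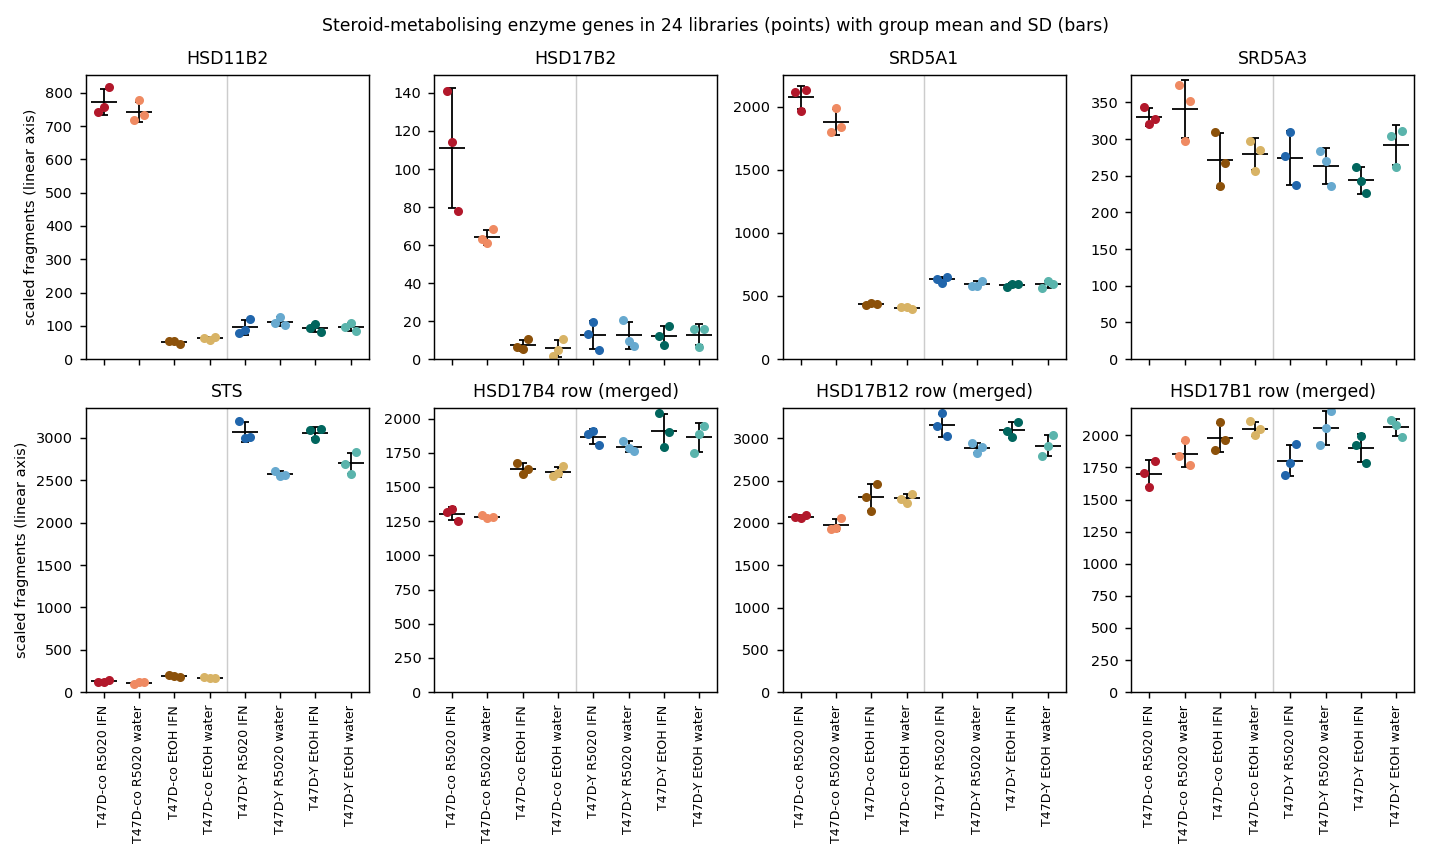
Scaled fragments (linear axis from 0) of each row in the 24 libraries, with 1 point per library and bars for the group mean and SD (n = 3), T47D-co left of T47D-Y. HSD11B2, HSD17B2 and SRD5A1 are high only in the T47D-co groups given R5020, and STS is high in all 4 T47D-Y groups.

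The first question was how R5020 moves these genes in cells that carry the receptor. In T47D-co given water, all 8 rows were called, 4 higher and 4 lower. Across all entries 56.5% were called, 26.6% higher and the rest lower, so a call by itself sets these genes apart little, and the sizes differ widely. The median log2 fold change of the 8 was 0.07, against -0.04 over all entries. HSD11B2, HSD17B2 and SRD5A1 rose by more than 4-fold, while the other 5 moved by less than 2-fold. With IFN present the same 4 rows rose and the same 4 fell, where 58.2% of all entries were called, 27.5% higher and the rest lower.

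HSD11B2 is the enzyme that inactivates cortisol. Its 3 T47D-co libraries given R5020 and water held 718.8, 777.7 and 732.9 scaled fragments, against 62.6, 58.5 and 66.8 in those given EtOH and water. The groups lie far apart. The log2 fold change was 3.55 ± 0.13 (limma, adjusted p = 7.23e-18), and the ratio of means was 11.9. With IFN the R5020 libraries held 743.9, 758.8 and 816.7 scaled fragments of HSD11B2, against 54.0, 54.5 and 46.4 in the EtOH libraries, a log2 fold change of 3.88 ± 0.13. HSD11B2 (hg19 chr16:67464554-67471456) shares its locus with RP11-297D21.2, and summing the 2 entries left the change at 3.55 with water.

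SRD5A1, a 5alpha-reductase that acts on testosterone and on progesterone, rose with the smallest error of these 3 genes. T47D-co libraries given R5020 and water held 1799.4, 1992.1 and 1840.1 scaled fragments, against 409.0, 416.1 and 395.2 in those given EtOH and water. The change was 2.203 ± 0.049 on the log2 scale (limma, adjusted p = 1.91e-22), a ratio of means of 4.62. With IFN the R5020 libraries held 2119.0, 1967.6 and 2135.7, against 426.8, 445.0 and 434.0 in the EtOH libraries (2.25 ± 0.05). All R5020 values lie above all EtOH values by more than 4-fold. The row (hg19 chr5:6633455-6669675) is alone at its locus, but the pseudogene SRD5A1P1, a near copy on another chromosome that can share reads, moved too, with a mean of 47.5 scaled fragments in R5020 libraries and 20.1 in EtOH libraries given water. Adding SRD5A1P1 to SRD5A1 gave a change of 2.17, an alternative chosen after seeing the data.

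HSD17B2, which oxidises oestradiol and testosterone to weaker forms, was near the detection limit without R5020. T47D-co libraries given R5020 and water held 63.2, 60.9 and 68.5 scaled fragments, against 1.75, 4.86 and 10.7 in those given EtOH and water. The change was 3.51 ± 0.50 on the log2 scale (limma, adjusted p = 1.11e-06). With IFN the R5020 libraries held 141.0, 114.1 and 78.0 scaled fragments of HSD17B2, against 6.13, 5.20 and 10.6 in the EtOH libraries (3.77 ± 0.50). The groups do not overlap in either state, but the fold rests on a few fragments per EtOH library, and a pseudocount of 10 gave 2.27 with water and 2.78 with IFN.

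The HSD17B2 locus (hg19 chr16:82068608-82173236) also holds RP11-510J16.5, a second entry between which and HSD17B2 the authors' software divided the fragments. In T47D-co given water, RP11-510J16.5 averaged 275.5 ± 33.4 scaled fragments with R5020 and 215.7 ± 14.7 with EtOH (SD, n = 3 each). HSD17B2 thus made up 18.9% of the locus with R5020 and 2.6% with EtOH. RP11-510J16.5 itself rose by 0.35 ± 0.08 on the log2 scale (limma, adjusted p = 0.000559). Summed over both entries the locus rose by 0.61 with water and 0.99 with IFN, well under the change of HSD17B2 alone, and both sums were called.

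**Figure D2:**
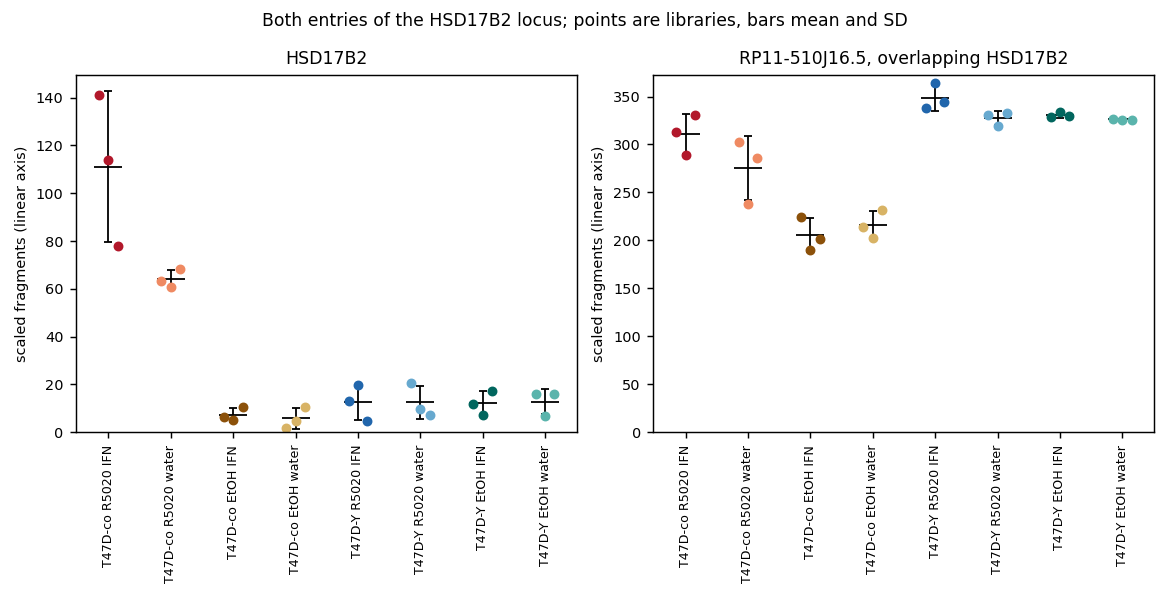
Scaled fragments (linear axes from 0) of HSD17B2, left, and of RP11-510J16.5 at the same locus, right, with 1 point per library and bars for mean and SD (n = 3). HSD17B2 stands at 60.9 to 141.0 in T47D-co given R5020 and at or below 20.4 in the other 18 libraries, whereas RP11-510J16.5 lies at 190.0 to 364.1 in all 24.

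SRD5A3 moved little. Despite its name it encodes a polyprenol reductase of dolichol synthesis, needed for protein glycosylation. T47D-co libraries given R5020 and water held 373.4, 297.2 and 352.2 scaled fragments, against 298.0, 256.0 and 285.4 in those given EtOH and water. These values overlap, and the change of 0.28 ± 0.11 on the log2 scale was called (limma, adjusted p = 0.0309). With IFN it was 0.29 ± 0.11, without overlap. The call with water ended without the 4 libraries low in mitochondrial transcripts (0.22), and without T47D-co EtOH water replicate 2 (0.22), R5020 water replicate 1 (0.21) or R5020 water replicate 3 (0.25), and the call with IFN without EtOH IFN replicate 2 (0.20), EtOH IFN replicate 3 (0.29) or R5020 IFN replicate 1 (0.27). The antisense entry SRD5A3-AS1 at the same locus (hg19 chr4:56212275-56262009) averaged 29.5 ± 5.84 scaled fragments with R5020 and 11.0 ± 5.23 with EtOH. Reads of the 2 strands cannot be told apart here, since no strand setting is given in the sources used here.

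STS, the sulfatase, fell in T47D-co. Libraries given R5020 and water held 92.0, 115.1 and 118.3 scaled fragments, against 178.0, 165.6 and 169.4 in those given EtOH and water. That is a log2 fold change of -0.66 ± 0.07 (limma, adjusted p = 7.84e-09), with no overlap. With IFN the R5020 libraries held 124.6, 120.7 and 139.3, against 196.3, 186.2 and 181.4 in the EtOH libraries (-0.55 ± 0.07). The STS row (hg19 chrX:7137496-7272851) is alone at its locus.

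The 3 merged rows fell slightly. The HSD17B4 row, whose enzyme oxidises oestradiol and shortens fatty acyl chains in peroxisomes, averaged 1280.4 ± 10.7 scaled fragments with R5020 and 1612.0 ± 35.4 with EtOH in T47D-co given water (-0.33 ± 0.04, limma adjusted p = 4.12e-07). The HSD17B12 row, whose enzyme reduces ketoacyl chains in fatty acid elongation and can reduce oestrone, averaged 1975.3 ± 72.7 with R5020 and 2289.2 ± 51.6 with EtOH (-0.21 ± 0.04). The HSD17B1 row, which includes the enzyme that makes oestradiol from oestrone, averaged 1855.7 ± 99.4 with R5020 and 2052.4 ± 54.8 with EtOH (-0.15 ± 0.06, limma adjusted p = 0.032). Over all 8 rows, 7 had R5020 and EtOH libraries that did not overlap with water, all but SRD5A3, as did 61.7% of all entries. With IFN all 8 did, against 60.4% of all entries. The HSD17B1 row lost its call with water without T47D-co EtOH water replicate 1 or 3 or R5020 water replicate 1 or 3, at -0.15 to -0.11, with the values as deposited (-0.12) and with no filter (limma adjusted p = 0.0513). The HSD17B12 row lost its call with IFN without EtOH IFN replicate 3 (-0.10).

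In T47D-Y, R5020 gave no called change among the 8 rows. With water 0 of 8 were called, where limma called 0.218% of all entries, and with IFN 0 of 8, against 0.298%. At an unadjusted p under 0.05 the count was 0 with water, against 4.20% of all entries, and 1 with IFN, against 5.97%. Limma with voom weights called 0 in both. HSD11B2 held 107.1, 127.1 and 103.5 scaled fragments in T47D-Y given R5020 and water, against 95.04, 107.6 and 85.0 in T47D-Y given EtOH and water. The values overlap, at a log2 fold change of 0.23 (95% interval -0.04 to 0.50). SRD5A1 held 576.1, 581.5 and 619.3 with R5020, against 566.1, 618.4 and 593.6 with EtOH. Its change was -0.0008 (-0.10 to 0.10), so a rise of the size seen in T47D-co lies far outside the interval. With IFN, SRD5A1 averaged 630.8 ± 23.2 with R5020 and 585.4 ± 15 with EtOH, at 0.11 (0.01 to 0.21, limma adjusted p = 0.785). For HSD17B2 the interval with water was wide, -1.10 to 0.95, at 12.4 scaled fragments with R5020 and 12.8 with EtOH.

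The difference between the lines was tested directly. The interaction of line with R5020, among libraries given water, was called for 7 of 8 rows, against 44.6% of all entries. It was positive in 4 of them, against 21.6% of entries, and negative in 3, against 23.0%. It was 3.32 ± 0.19 on the log2 scale for HSD11B2, 3.58 ± 0.70 for HSD17B2, 2.203 ± 0.069 for SRD5A1 and 0.43 ± 0.15 for SRD5A3. STS (-0.59 ± 0.10), the HSD17B4 row (-0.28 ± 0.06) and the HSD17B12 row (-0.20 ± 0.06) had negative interactions. The HSD17B1 row was not called (-0.14 ± 0.08, limma adjusted p = 0.172), but was with quantile normalization (-0.25, limma adjusted p = 0.0156). Summed over its locus, HSD17B2 had an interaction of 0.61, still called. Without the 4 libraries low in mitochondrial transcripts, SRD5A3 (0.49), the HSD17B4 row (-0.21) and the HSD17B12 row (-0.19) lost their calls. That fit kept 1 library in T47D-Y given R5020 and water. SRD5A3 also lost its call without any 1 of 6 libraries, at 0.35 to 0.40, namely T47D-co EtOH water replicate 2, T47D-co R5020 water replicates 1 and 3, T47D-Y EtOH water replicates 1 and 3 and T47D-Y R5020 water replicate 3.

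**Figure D3:**
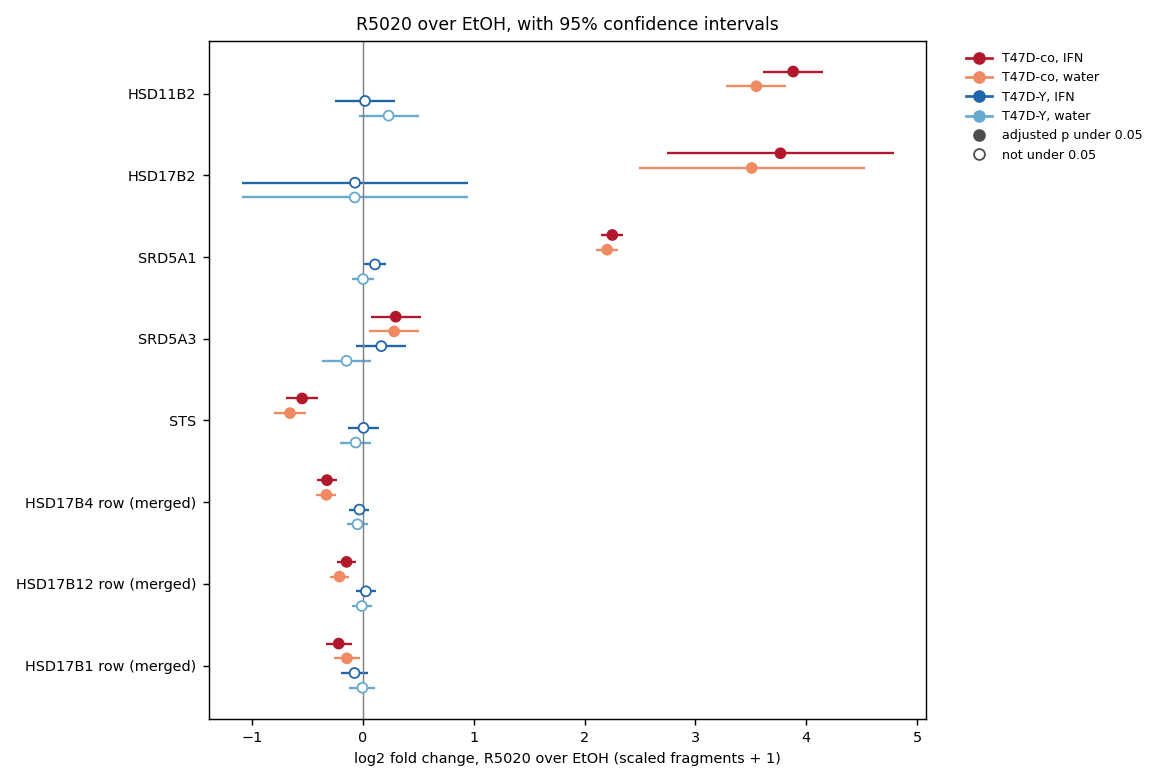
Log2 fold change of R5020 over EtOH for each row (points) with 95% confidence intervals (lines), in T47D-co (red and orange) and T47D-Y (blues), filled where the adjusted p is under 0.05. HSD11B2, HSD17B2 and SRD5A1 lie between 2.203 and 3.881 in T47D-co, and no T47D-Y point is filled.

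IFN gave few calls among these genes. Among libraries given EtOH, 0 of 8 rows were called in T47D-co, where 1.00% of all entries were, and 0 of 8 in T47D-Y, where 4.44% were. At an unadjusted p under 0.05 these counts were 1 of 8 in T47D-co, against 8.80% of all entries, and 4 of 8 in T47D-Y, against 17.0%. Limma with voom weights called 0 in T47D-co and 1, STS, in T47D-Y. Among libraries given R5020, STS alone was called in T47D-co, against 11.3% of all entries, and in T47D-Y, against 4.77%.

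STS was higher with IFN in all 4 settings, by small amounts. In T47D-co given R5020 it was 124.6, 120.7 and 139.3 scaled fragments with IFN, against 92.0, 115.1 and 118.3 with water, a log2 fold change of 0.25 ± 0.07 (limma, adjusted p = 0.0231). In T47D-Y given R5020 it was 3202.2, 3001.6 and 3007.3 with IFN, against 2608.2, 2555.5 and 2568.1 with water (0.25 ± 0.07, limma adjusted p = 0.0339). The libraries did not overlap in either line, as was so for 27.1% of all entries in T47D-co and 22.0% in T47D-Y. In T47D-co given EtOH, STS stood at 0.14 ± 0.07 without a call. In T47D-Y given EtOH it stood at 0.18 ± 0.07, again without a call. Neither pair of groups overlapped, as was so for 13.0% of all entries in T47D-co and 21.6% in T47D-Y. These settings share no library. Both calls were easily lost. That in T47D-co ended without R5020 water replicate 1 (0.13) or R5020 IFN replicate 3 (0.18), with voom weights (0.25, limma adjusted p = 0.208) and in a fit of the groups compared alone (limma adjusted p = 0.304). The call in T47D-Y ended without any 1 of its 6 libraries (0.22 to 0.27), with quantile normalization (0.22, limma adjusted p = 0.0564) and with no filter (limma adjusted p = 0.052). It also ended without the 4 libraries low in mitochondrial transcripts, where the change was 0.26. With the values as deposited the median entry stood at -0.165 with IFN in T47D-co given R5020 and STS at 0.06, without a call. In T47D-Y given R5020 the median entry stood at -0.48 and STS at -0.23.

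The HSD17B1 row in T47D-Y given R5020 averaged 1803.2 ± 121 with IFN and 2056.7 ± 130 with water (-0.19 ± 0.06, limma adjusted p = 0.0565), and was called without R5020 water replicate 1 or R5020 IFN replicate 3, both at -0.24, with quantile normalization (-0.23) and with voom weights (limma adjusted p = 0.0492). HSD11B2 there stood at -0.25 ± 0.13, and was called without R5020 IFN replicate 3 (-0.43).

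HSD17B2 in T47D-co given R5020 averaged 111.1 ± 31.6 scaled fragments with IFN and 64.2 ± 3.9 with water, values that do not overlap but gave no call (0.74 ± 0.50, limma adjusted p = 0.37). Summed over its locus the change was 0.31, which was called (limma, adjusted p = 0.0104). SRD5A1 averaged 2074.1 ± 92.6 with IFN and 1877.2 ± 102 with water in the same cells (0.14 ± 0.05, limma adjusted p = 0.0573), and was called when summed with SRD5A1P1 (0.14, limma adjusted p = 0.0444), and without R5020 water replicate 2 (0.19) or R5020 IFN replicate 2 (0.18). The interaction of R5020 with IFN in T47D-co was called for 0 of 8 rows, against 1.01% of all entries, and that of line with IFN for 0 of 8, against 0.377%. At an unadjusted p under 0.05 both counts were 0, against 15.4 and 7.71% of all entries, and voom weights also called 0 in both. The interaction of R5020 with IFN for HSD11B2 was 0.33, with a 95% interval of -0.05 to 0.72, and for SRD5A1 0.05, with an interval of -0.10 to 0.19.

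The lines differed before any treatment. In libraries given EtOH and water, 6 of 8 rows were lower in T47D-co than in T47D-Y and 0 were higher, against 63.1% of all entries called, 33.5% lower and 29.7% higher. STS set the lines apart most. It held 178.0, 165.6 and 169.4 scaled fragments in T47D-co, against 2697.4, 2578.1 and 2829.7 in T47D-Y, a log2 fold change of -3.97 ± 0.07 (limma, adjusted p = 1.09e-24), or means 15.8-fold lower in T47D-co. Every T47D-Y library holds far more STS than any T47D-co library. With R5020 and water the difference was -4.57 ± 0.07, and the STS mean was 23.8-fold lower in T47D-co.

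The other differences without treatment were smaller. HSD11B2 averaged 62.6 ± 4.15 scaled fragments in T47D-co, against 95.9 ± 11.3 in T47D-Y (-0.60 ± 0.13). SRD5A1 averaged 406.7 ± 10.6 in T47D-co, against 592.7 ± 26.2 in T47D-Y (-0.54 ± 0.05). The HSD17B12 row stood at -0.35 ± 0.04 and the HSD17B4 row at -0.21 ± 0.04. HSD17B2 was called at -1.18 ± 0.50 (limma, adjusted p = 0.0414) with overlapping values. That call was lost with a pseudocount of 10 (-0.54), quantile normalization (-0.90), voom weights (-1.28), no filter or a fit of the groups compared alone (both -1.18), and without the 4 libraries low in mitochondrial transcripts (-0.998). It was also lost without T47D-co EtOH water replicate 1 (-0.65) or 2 (-1.19) or T47D-Y EtOH water replicate 1 (-0.98) or 3 (-0.99). SRD5A3 (-0.06 ± 0.11) and the HSD17B1 row (-0.0078, SE 0.0572) were not called. With the values as deposited, where the median entry stood at -0.27, both were called, SRD5A3 at -0.30 and the HSD17B1 row at -0.24.

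With R5020 the order of the lines turned for HSD11B2 and SRD5A1. In libraries given R5020 and water, 4 of 8 rows were higher and 4 lower in T47D-co, against 68.5% of all entries called, 31.9% higher and 36.6% lower. On the log2 scale HSD11B2 was higher by 2.72 ± 0.13, HSD17B2 by 2.41 ± 0.50, SRD5A1 by 1.66 ± 0.05 and SRD5A3 by 0.37 ± 0.11. With the values as deposited SRD5A3 stood at 0.16 and was not called, while the median entry stood at -0.26. These values share the T47D-co R5020 libraries with the R5020 comparison above and are no separate support for it. For HSD17B2 the sum over the locus gave -0.0066, so its line difference depends on how fragments were divided with RP11-510J16.5. The HSD17B1 row was called at -0.15 ± 0.06 (limma, adjusted p = 0.0251), with overlapping values. That call ended without T47D-Y R5020 water replicate 2 (-0.15) or 3 (-0.10) or T47D-co R5020 water replicate 1 (-0.14) or 3 (-0.11). With IFN, 5 rows were lower and 0 higher in T47D-co given EtOH, against 62.6% of all entries called, 33.0% lower and 29.6% higher. With R5020 and IFN, 4 were higher and 3 lower, against 68.3% of entries called, 32.5% higher and 35.8% lower. SRD5A3 lost its call with R5020 and IFN (0.28 ± 0.11) without T47D-Y R5020 IFN replicate 3 (0.17) or T47D-co R5020 IFN replicate 1 (0.25).

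**Figure D4:**
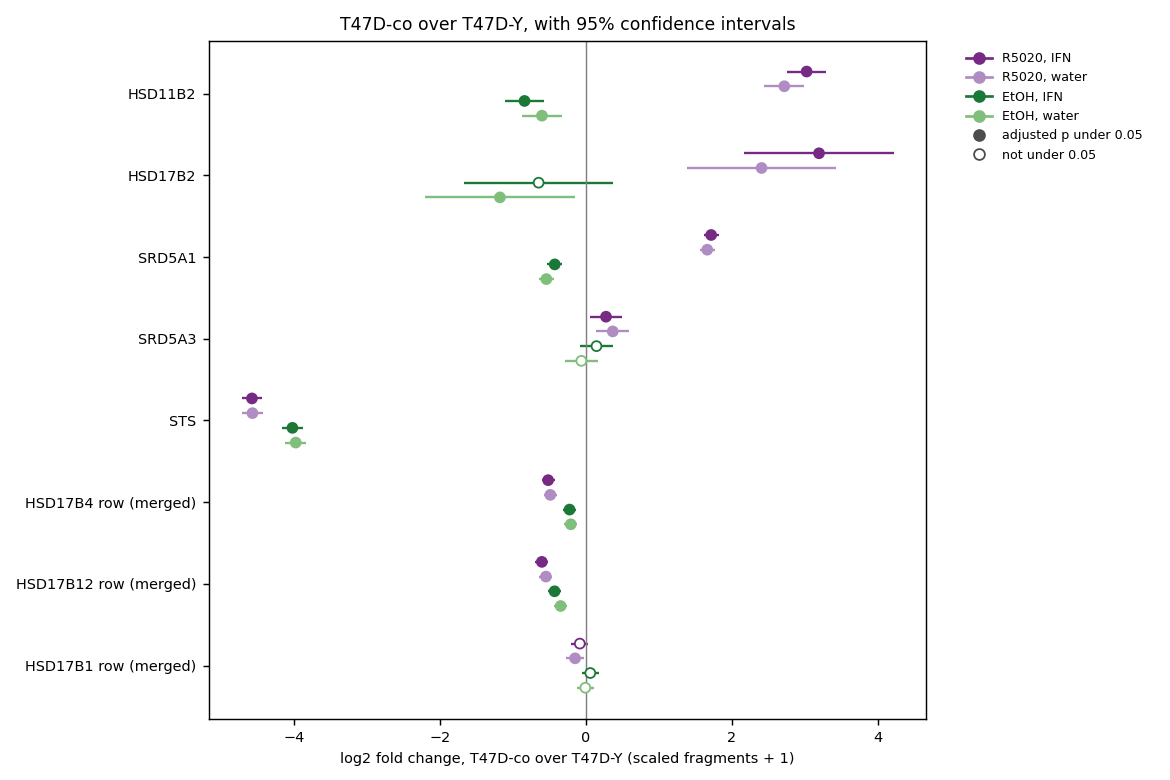
Log2 fold change of T47D-co over T47D-Y for each row (points) with 95% confidence intervals (lines), for R5020 (purples) and EtOH (greens), filled where the adjusted p is under 0.05. STS lies at -4.57 to -3.97 in all 4 conditions, and HSD11B2 and SRD5A1 are negative with EtOH and positive with R5020.

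Across the 8 groups, STS spanned 28.3-fold between the highest and lowest group mean, HSD17B2 19.3-fold, HSD11B2 15.0-fold and SRD5A1 5.10-fold. The other 4 rows spanned 1.21-fold to 1.60-fold. STS was highest in T47D-Y given R5020 and IFN (3070.4) or EtOH and IFN (3061.4), which overlap, followed by T47D-Y given EtOH and water (2701.7) or R5020 and water (2577.3), which overlap too. T47D-co given EtOH and IFN (188.0), EtOH and water (171.0), R5020 and IFN (128.2) and R5020 and water (108.5) came after them. For HSD11B2 the T47D-co groups given R5020 came first (773.1 with IFN, 743.2 with water, overlapping), the 4 T47D-Y groups lay between (93.5 to 112.6, overlapping) and the T47D-co groups given EtOH came last (62.6 with water, 51.6 with IFN). SRD5A1 had the same 3 tiers. Its means were 2074.1 and 1877.2 in T47D-co given R5020, overlapping, 585.4 to 630.8 in T47D-Y and 406.7 to 435.3 in T47D-co given EtOH.

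Levels of different genes were set side by side per kilobase of all annotated exons joined (GENCODE v29). HSD11B2 was the highest of the 5 single-gene rows in T47D-co given R5020 and water, at 391.1 ± 16.2 scaled fragments per kilobase. SRD5A1 followed at 263.2 ± 14.2, SRD5A3 at 81.4 ± 9.39, HSD17B2 at 44.1 ± 2.68 and STS at 16.6 ± 2.19. In T47D-Y given EtOH and water STS was the highest at 414.3 ± 19.3 scaled fragments per kilobase, and HSD17B2 the lowest at 8.80 ± 3.71.

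Among entries of 1 gene with a mean of at least 50 scaled fragments, those whose pattern over the 24 libraries was most like HSD11B2 were DPYSL2 (Pearson r = 0.994) and CEBPD (r = 0.993). For SRD5A1 SLC39A14 was the closest (r = 0.997). For STS they were TFAP2B and SCARA3 (both r = 0.998), and for HSD17B2 SEC24B (r = 0.946) and MAML3 (r = 0.945). These correlations describe libraries that share the same 8 groups. TFAP2B, for example, averaged 256.3 scaled fragments in T47D-co, against 5925.4 in T47D-Y, without R5020 or IFN. CEBPD, a transcription factor gene, averaged 1785.5 scaled fragments in T47D-co given R5020 and water and 164.1 in T47D-co given EtOH and water.

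A wider list of 52 genes of steroid metabolism was followed as well. Of these, 17 have no row and are not analysed here, and 32 passed the filter in 31 rows. With R5020 in T47D-co given water, 11 rows rose, 10 fell and 10 were not called. Over all entries 56.5% were called and 26.6% were higher, so the 21 calls among 31 rows are not far from that share. These counts include the AKR1C3 row and SRD5A2, which passed the filter only through the T47D-co libraries given R5020. Both are given as values with no test. Of the 5 rows of A-ring reduction, AKR1C1, AKR1C2 and the merged AKR1D1 row were called higher, where 26.6% of all entries were. The AKR1C3 row, an aldo-keto reductase that makes testosterone and reduces progesterone, held 50.6, 60.5 and 62.4 scaled fragments with R5020, against 3.85, 5.71 and 5.76 with EtOH. AKR1C2, which inactivates dihydrotestosterone, averaged 45.1 ± 4.59 with R5020 and 6.17 ± 3.65 with EtOH (2.79 ± 0.38). AKR1C1, which inactivates progesterone, averaged 107.2 ± 18.2 with R5020 and 52.6 ± 9.2 with EtOH (1.01 ± 0.18). These 3 genes are close relatives in sequence, and how reads were split among them is uncertain. The other 2 rows, low ones named after their values were seen, were SRD5A2, the second 5alpha-reductase, which reached 10 scaled fragments in 6 libraries, all of them T47D-co given R5020, and the merged AKR1D1 row (0.66 ± 0.26).

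Other classes were mixed. Of 6 rows of sulfation 1 rose and 3 fell. SULT2B1, which sulfates cholesterol and other steroids, averaged 399.5 ± 25.2 scaled fragments with R5020 and 707.4 ± 24.7 with EtOH (-0.82 ± 0.06, limma adjusted p = 2.73e-12). Of 5 rows of oxidation 1 rose and 2 fell, and the risen one was the merged CYP1B1 row (0.77 ± 0.03), whose enzyme hydroxylates oestradiol. Of 6 rows of upstream synthesis 1 rose and 2 fell, among them CYB5A, cytochrome b5 (-0.67 ± 0.07). Of 8 rows of other 17beta-hydroxysteroid dehydrogenases and carbonyl reductases 2 rose and 3 fell. The 1 corticosteroid row, H6PD, which supplies NADPH to the opposite cortisone-reducing enzyme, rose by 0.38 ± 0.06 and is named after its value was seen.

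In T47D-Y given water, R5020 gave 0 calls among these 31 rows, the AKR1C3 row and SRD5A2 included, against 0.218% of all entries. At an unadjusted p under 0.05 it gave 2, against 4.20% of all entries. The interaction of line with R5020 was called for 14 of 31 rows, 7 of each sign, close to the 44.6% of all entries. It was 0.79 ± 0.25 for AKR1C1 and -0.79 ± 0.08 for SULT2B1. AKR1C2 reached 10 scaled fragments in 8 T47D-co libraries and 1 T47D-Y library, so no interaction is given for it. The count of 14 includes any rows that passed the filter through 1 line only, which are named below. With IFN among EtOH libraries, 1.00% of all entries were called in T47D-co and 4.44% in T47D-Y. Among these rows 2 fell in each line and 0 rose. They were CYP1A1 and the CYP1B1 row, which in T47D-co changed by -2.16 ± 0.11 and -1.24 ± 0.03. Between the untreated lines, 9 rows were higher and 12 lower in T47D-co, near the 63.1% of all entries called. Of the rows counted, HSD17B3 and the merged SULT1E1 row passed the filter only through T47D-Y. SRD5A2, AKR1C2, HSD17B14 and the merged AKR1C3 and CYP7B1 rows passed it only through T47D-co. The merged HSD17B11 and HSD17B13 row averaged 4.18 ± 0.683 scaled fragments in T47D-co and 66.8 ± 2.87 in T47D-Y. It reached 10 scaled fragments in 1 T47D-co library and in all 12 T47D-Y libraries, and passed the filter only through T47D-Y, so no test is given. CYP1A1 averaged 139.6 scaled fragments in T47D-co and 589.2 in T47D-Y (-2.07 ± 0.115). The CYP1B1 row averaged 3015.8 in T47D-co and 7988.8 in T47D-Y (-1.41 ± 0.03). SULT1A1, a phenol sulfotransferase that acts on oestrogens (1.03 ± 0.07), and PAPSS2, which makes the sulfate donor (1.02 ± 0.06), were higher in T47D-co. POR, which passes electrons to steroid hydroxylases (-0.92 ± 0.05), was lower.

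**Figure D5:**
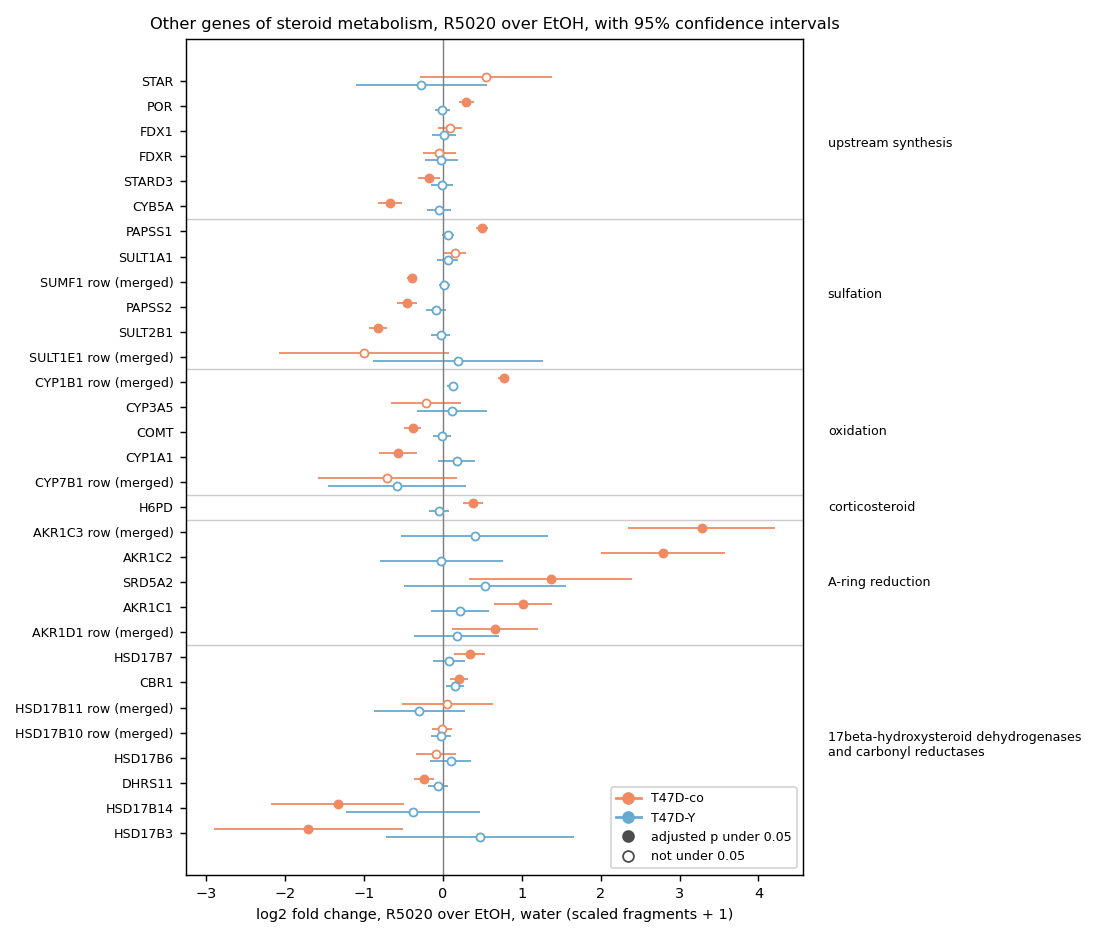
Log2 fold change of R5020 over EtOH in libraries given water for 31 rows of the wider list (points) with 95% confidence intervals (lines), in T47D-co (orange) and T47D-Y (blue), grouped by class and filled where the adjusted p is under 0.05. Of the 5 rows of A-ring reduction, AKR1C1, AKR1C2 and the AKR1D1 row are filled and positive in T47D-co, and no T47D-Y point is filled. The AKR1C3 row and SRD5A2 passed the filter only through T47D-co libraries given R5020, so their filled points are not read as a result.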

How the data were processed

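Total RNA from 24 libraries was analysed, grouped by the labels. Per the submitters' processing notes the authors used TopHat2 2.0.12 and Cufflinks 2.2.1 on GRCh37, also called hg19. The authors deposited 1 table of 25541 entries; its headers name no unit, and its values were treated as a signal. Where an entry had its locus to itself, 97.8 to 98.8% of a library's values were multiples of 1 step (tolerance 0.05 of a step), against 61.1 to 63.1% of all values, so the deposited signal is estimated fragments times a factor. These factors had been set within 4 blocks (line by IFN state). Each was taken out again, and 1 median-of-ratios factor per library was put in its place, computed over 14209 entries with a mean of at least 50. No count test was run. 1 line without a gene and 25 entries under 10 repeated symbols were left out.

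A fit of 8 group means to log2(scaled fragments + 1) used limma 3.58.1 in R 4.3.3 (variance trend, 16 residual and 8.05 prior degrees of freedom), after parsing in Python 3.11.15, and gave 15 comparisons. The fit was also run on simulated data in which few entries changed, in 1 group only. That run does not measure its accuracy for these data, where many entries changed. All 8 rows are reported in every comparison. Of the wider list, up to 6 called rows with the largest change and a group mean of at least 50 were named in 5 comparisons, and for each row spanning at least 2-fold the 2 entries most correlated with it, 1 of which is not reported here. Members and lists were chosen with earlier results of these data known. Tried instead were other scalings, the deposited scale, other pseudocounts and filters, voom weights, fits on fewer groups or libraries, sums over shared loci and a replicate block. The number of fragments limits precision for HSD17B2.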

Additional observations from a re-analysis of the deposited data

Results flagged for a closer look

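In 7 of the 8 rows the R5020 response differed between T47D-co and T47D-Y by a direct test, the interaction of line with R5020 in libraries given water (limma, Benjamini-Hochberg adjusted p under 0.05), as it did in 44.6% of all entries. On the log2 scale, T47D-co minus T47D-Y, the difference was 3.3191 for HSD11B2, 3.5831 for HSD17B2, 2.2033 for SRD5A1 and 0.4298 for SRD5A3. It was -0.5930 for STS, -0.2810 for the HSD17B4 row and -0.2015 for the HSD17B12 row. The lines differ in PGR and NR3C1 together, so the part of each cannot be told apart.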

How the results depend on the processing

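Of 1290 member fold changes under alternatives that kept all libraries or left out the 4 libraries low in mitochondrial transcripts, 1230 stayed on their side of the threshold, 25 gained a call, 19 lost one and 16 turned. The deposited scale accounts for 15 of the 16, through factors set within line and IFN state. There the IFN change among EtOH libraries was -0.1723 for the HSD17B12 row and -0.1593 for the HSD17B4 row in T47D-co, and -0.3864, -0.4393 and -0.2959 for the HSD17B12 row, the HSD17B4 row and STS in T47D-Y. Among R5020 libraries it was -0.1170 and -0.1622 for the first 2 in T47D-co, and -0.3557 for the HSD17B12 row, -0.4280 for SRD5A3, -0.3916 for SRD5A1, -0.4276 for the HSD17B4 row and -0.2312 for STS in T47D-Y. The interaction of line with IFN was 0.2141, 0.2799 and 0.2529 for the HSD17B12 row, the HSD17B4 row and STS. The line difference of HSD17B2 with R5020 and water was -0.0066 summed over its locus.

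For IFN the deposited scale called 4 members and 8440 entries in T47D-co given EtOH, 3 and 7205 given R5020, 7 and 14709 in T47D-Y given EtOH, 7 and 14783 given R5020, and 6 and 9526 for line by IFN. Calls of higher level made up 1.48, 2.25, 0.782, 0.683 and 99.2% there, against 56.9, 67.3, 56.4, 64.3 and 17.1% on the common scale, and 26.9 and 31.4% against 47 and 46.6% for the lines given EtOH or R5020 with water. Quantile normalization called 1406 entries for IFN in T47D-co given R5020 and 67 for R5020 by IFN. With no filter 0 members were called for IFN in T47D-Y given R5020. Fits on the groups compared called 27 and 15 entries for R5020 in T47D-Y with water and with IFN, 120 and 1362 for IFN in T47D-co given EtOH and R5020, 634 for IFN in T47D-Y given R5020 and 118 for R5020 by IFN, with 0 members for IFN in T47D-co given R5020 and 1 in T47D-Y given EtOH. Voom weights called 35 entries for R5020 in T47D-Y with IFN, and for IFN 2 members in T47D-co given R5020 (HSD17B2 and SRD5A1, not STS), 1 in T47D-Y given EtOH and 2 in T47D-Y given R5020. Sums over shared loci called 2 members for IFN in T47D-co given R5020. Without the 4 libraries low in mitochondrial transcripts the counts were 16 entries for R5020 in T47D-Y with water, 128, 514 and 325 for IFN in T47D-co given EtOH, T47D-Y given EtOH and T47D-Y given R5020, and 63 for R5020 by IFN, with 0 members for IFN in T47D-Y given R5020 and 4 for line by R5020. The fit without those 4 libraries kept 1 library in T47D-Y given R5020 and water. The cause was not tested.

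Leaving out 1 library at a time gave 0 to 2 members for IFN in either line given R5020, and 1153 to 2991 entries in T47D-co, 526 to 944 in T47D-Y given R5020, 574 to 852 in T47D-Y given EtOH, 75 to 416 for R5020 by IFN and 29 to 52 for R5020 in T47D-Y with IFN. Replicate numbers did not pair libraries (correlations -0.0838 to 0.0682 over 84 pairs, with 5 of 24 libraries closest to their own number), and the replicate block changed no member's call, with 8 members called for R5020 in T47D-co with water. Depth limits HSD17B2, AKR1C2 and the AKR1C3 row, which are low without R5020.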
